A study of Mus musculus with 15 samples.

Results

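RNA of mouse intestinal organoids was examined for 10 genes whose products carry the Wnt signal onto chromatin, out of 43629 genes counted in the series. The genes were chosen by name and not by their level, though with earlier results of these data known. They were the DNA-binding TCF/LEF factors Tcf7, Tcf7l1, Tcf7l2 and Lef1, the beta-catenin coactivators Bcl9, Bcl9l, Pygo1 and Pygo2, and the corepressors Tle1 and Tle4. All 10 were present in both the count table and the FPKM table. FPKM gives fragments per kilobase of transcript, scaled to the mapped reads of the library.

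The organoids were epithelial cultures in Matrigel grown from crypts of the proximal small intestine of mice on a mixed C57B6/129 background. Of the 13 libraries assigned to a group, 5 were WT, 4 Apc and 4 P-Rspo3. The study asked how epithelium carrying the Ptprk-Rspo3 rearrangement compares with wild-type epithelium and with epithelium that has lost Apc. The deposited reads per library numbered 28902729 to 35528495, so a gene at 3 counts or fewer was read as not detectable, with counting error only in view.

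WT comprised 4 lines homozygous for a floxed Apc allele (APC flox/flox, numbered 1, 2, 5 and 6) and 1 Dox naive culture, in which the doxycycline-driven Cas9 had not been switched on. All 5 grew in ENR medium, which supplies EGF, Noggin and R-spondin. Apc comprised lines 1, 2, 5 and 6 after recombination (Apc delta/delta), grown in EN medium without R-spondin. P-Rspo3 comprised 4 libraries, labelled 15d, 4d, M and F, of cultures carrying the R26-rtTA and c3GIC9 transgenes. In these cultures doxycycline-induced Cas9 and paired guides had made the Ptprk-Rspo3 inversion, so that Rspo3 is read from the Ptprk promoter. These were bulk polyclonal cultures selected and grown in EN medium and were not clones. In both comparisons with WT the genotype and the medium therefore changed together and cannot be told apart, whereas Apc and P-Rspo3 shared the medium. P-Rspo3 also differed from Apc, and from the 4 flox lines of WT, in the line of origin and in the use of doxycycline-induced Cas9. These differences cannot be told apart from the genotype either. Nothing in the labels says that the libraries of P-Rspo3 came from separate animals, or that 4d and 15d were separate cultures. The p-values therefore measure the spread between these libraries.

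TCF/LEF proteins sit on DNA at Wnt response elements and do not activate transcription by themselves. Without a Wnt signal they hold Groucho-family corepressors, encoded by the Tle genes, and target genes stay low. When beta-catenin escapes the destruction complex, of which APC is a scaffold, it enters the nucleus, displaces the corepressors and brings in BCL9 proteins, which in turn bind Pygopus proteins that read methylated histone H3. TCF7L2 (also called TCF4) is the family member on which the crypts of the small intestine depend, while TCF7 (TCF1) and LEF1 are best known from T lymphocytes and TCF7L1 (TCF3) from embryonic stem cells, where it acts mainly as a repressor.

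These factors recognise DNA with the core CAAAG, read as CTTTG on the other strand, and Lef1 and Tcf7 are themselves known Wnt targets. RefSeq promoter sequence on GRCm38.p6 was at hand for 9 of the 10 genes, in 17 windows. The 250 bases upstream of RefSeq starts of Lef1 and Tcf7l2, whose RNA differed in opposite directions between Apc and WT, are shown with each core in capitals. Both genes have RefSeq starts at the 5′ end and inside the gene, which matters here because RNA from either start entered the same gene-level value.

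Lef1, chr3:131110047-131110296, plus strand, before the 5′ start: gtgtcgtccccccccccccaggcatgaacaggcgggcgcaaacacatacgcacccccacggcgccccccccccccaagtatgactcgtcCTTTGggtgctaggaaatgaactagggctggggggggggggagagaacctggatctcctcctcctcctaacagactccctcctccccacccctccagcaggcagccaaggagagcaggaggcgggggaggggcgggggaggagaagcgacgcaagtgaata

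Lef1, chr3:131156044-131156293, plus strand, before a start inside the gene: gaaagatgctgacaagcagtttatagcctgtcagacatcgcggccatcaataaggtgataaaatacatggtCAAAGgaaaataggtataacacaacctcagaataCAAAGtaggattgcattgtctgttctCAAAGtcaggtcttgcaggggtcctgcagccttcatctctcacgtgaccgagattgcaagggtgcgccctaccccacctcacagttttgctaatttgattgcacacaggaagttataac

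Tcf7l2, chr19:55741560-55741809, plus strand, before the 5′ start: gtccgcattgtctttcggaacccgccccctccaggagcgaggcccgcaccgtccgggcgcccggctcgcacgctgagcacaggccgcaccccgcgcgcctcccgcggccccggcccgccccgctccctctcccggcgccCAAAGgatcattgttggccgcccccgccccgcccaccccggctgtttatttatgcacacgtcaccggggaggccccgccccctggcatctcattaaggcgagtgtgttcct

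Tcf7l2, chr19:55895071-55895320, plus strand, before a start inside the gene: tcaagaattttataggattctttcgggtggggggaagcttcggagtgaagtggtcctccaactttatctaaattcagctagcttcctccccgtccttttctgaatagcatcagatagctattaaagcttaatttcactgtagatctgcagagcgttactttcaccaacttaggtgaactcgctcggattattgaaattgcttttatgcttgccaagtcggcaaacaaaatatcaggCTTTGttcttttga

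The core began 161 bases before the 5′ start of Lef1 and 111 bases before that of Tcf7l2. The window inside Lef1 held it 3 times, and the window inside Tcf7l2 once. The core is short and common: 48.6% of all 32851 RefSeq windows of the same length held CAAAG on either strand, and 8 of the 17 windows of these genes did. Windows of Lef1 made up 4 of those 8, some of them overlapping. Neither window of Tcf7 held the core, but the upstream one appears to hold coding sequence of the full-length form. The other had 67 of its 250 bases in exons. Sequence upstream of full-length Tcf7 was therefore not examined. The longer match ATCAAAG, which contains the core, was in 3.21% of all windows and in 0 of the 17. The first of these windows overlaps an exon of Gm43352, an antisense gene on the other strand, and the windows inside the genes are intronic in GENCODE vM21. A match describes letters only.

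The labels were first checked in the RNA. Rspo3, the rearranged ligand gene, had an FPKM of 6.26 to 11.5 in P-Rspo3, at most 0.0112 in WT and 0.0760 to 0.668 in Apc. Within P-Rspo3 it was lowest in culture 4d. Ptprk, its partner in the inversion, had 13.1 to 18.6 in WT and 18.2 to 24.5 in Apc. In P-Rspo3 it had 7.90 in 15d, 7.94 in M and 6.57 in F, but 13.3 in 4d, inside the WT range on this scale. Ptprk did not pass between P-Rspo3 and WT (log2 fold change -0.72, edgeR adjusted p = 0.153). By qRT-PCR, the study reported lower Ptprk RNA in P-Rspo3 organoids. Apc itself had 28.3 to 30.5 in Apc libraries and 11.6 to 22.3 in WT. A count over the whole gene does not separate the deleted exon, so this value checks nothing about the deletion. The 8 genes of Wnt output fixed for this purpose (Axin2, Lgr5, Ascl2, Nkd1, Notum, Sp5, Rnf43 and Znrf3) were all called higher in Apc than in WT, by 2.74-fold for Lgr5 to 111-fold for Notum, and 0 of them passed the test between P-Rspo3 and WT. All 8 had negative fitted values in the latter comparison. On CPM scaled by TMM, P-Rspo3 lay entirely below WT for Nkd1 and Sp5, as it did for 2.49% of all genes tested. Their log2 fold changes were -2.77 (edgeR adjusted p = 0.0957) and -2.04 (adjusted p = 0.124). The study, which used DESeq2, reported Nkd1 as significantly downregulated in P-Rspo3 organoids and also measured its downregulated genes by qRT-PCR. The summed FPKM of 7 epithelial markers was 1338 to 1886 over the 13 libraries. Within that list Krt18 was called higher in Apc than in either other group, and Vil1 and Cdx1 lower. The makeup within the epithelium differed: 7 enterocyte markers summed to 3207 to 9360 in WT, 2224 to 5168 in P-Rspo3 and 25.2 to 53.9 in Apc. Paneth cell markers (4 genes) summed to 5404 to 8607 in WT, 3031 to 6516 in P-Rspo3 and 519 to 1467 in Apc. Of those 4, Mmp7 was called higher in Apc than in WT (3.35-fold) and than in P-Rspo3 (3.75-fold), and the others lower. Of 4 crypt stem cell genes, Lgr5, Ascl2 and Smoc2 were called higher in Apc than in either other group. The remaining gene, Olfm4, was called lower, by 877-fold against WT. Genes of non-epithelial cell types were low and moved in both directions. The summed FPKM of 6 fibroblast genes was 0.179 to 0.311 in Apc, at most 0.0388 in WT and at most 0.0459 in P-Rspo3, most of it from Pdgfra, with 54 to 73 reads in Apc, 0 to 4 in WT and 3 to 9 in P-Rspo3. Of 3 endothelial genes, Kdr had 0 reads throughout, Cdh5 had 217 to 372 in Apc and 0 in the other groups, and Pecam1 had 3 to 10 in Apc, 21 to 36 in WT and 18 to 32 in P-Rspo3. Among B cell and myeloid genes, Cd68 had 154 to 431 reads in Apc and 22 to 44 elsewhere, Csf1r 1 to 20 in Apc and 24 to 290 elsewhere, and Cd79a and Adgre1 at most 2 in any library. Between Apc and either other group, Cdh5, Pdgfra and Cd68 were called higher and Pecam1 and Csf1r lower. Cdh5 and Pdgfra reached the expression filter only through their Apc libraries. The part of these differences in the results below was not tested. In bulk RNA, fewer cells of a type and less RNA per cell cannot be told apart.

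The genes spanned a wide range of levels in WT. By mean FPKM the order was Tle1 (35.1), Pygo2 (15.2), Tcf7l2 (14.0), Bcl9 (9.55), Tle4 (8.65), Bcl9l (6.64), Tcf7 (5.04), Lef1 (0.151), Tcf7l1 (0.0925) and Pygo1 (0). Neighbours whose WT libraries overlapped in range were Pygo2 with Tcf7l2, Bcl9 with Tle4, Bcl9l with Tcf7, and Lef1 with Tcf7l1. In P-Rspo3 the first 3 places and the last 4 were held by the same genes. In Apc, Tcf7 took the third place, with 19.1 ± 2.44 (SD, n = 4), ahead of Tcf7l2 with 11.1 ± 0.506 (SD, n = 4), and the ranges of those factors did not overlap (16.1 to 21.6 against 10.4 to 11.5).

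**Figure D1:**
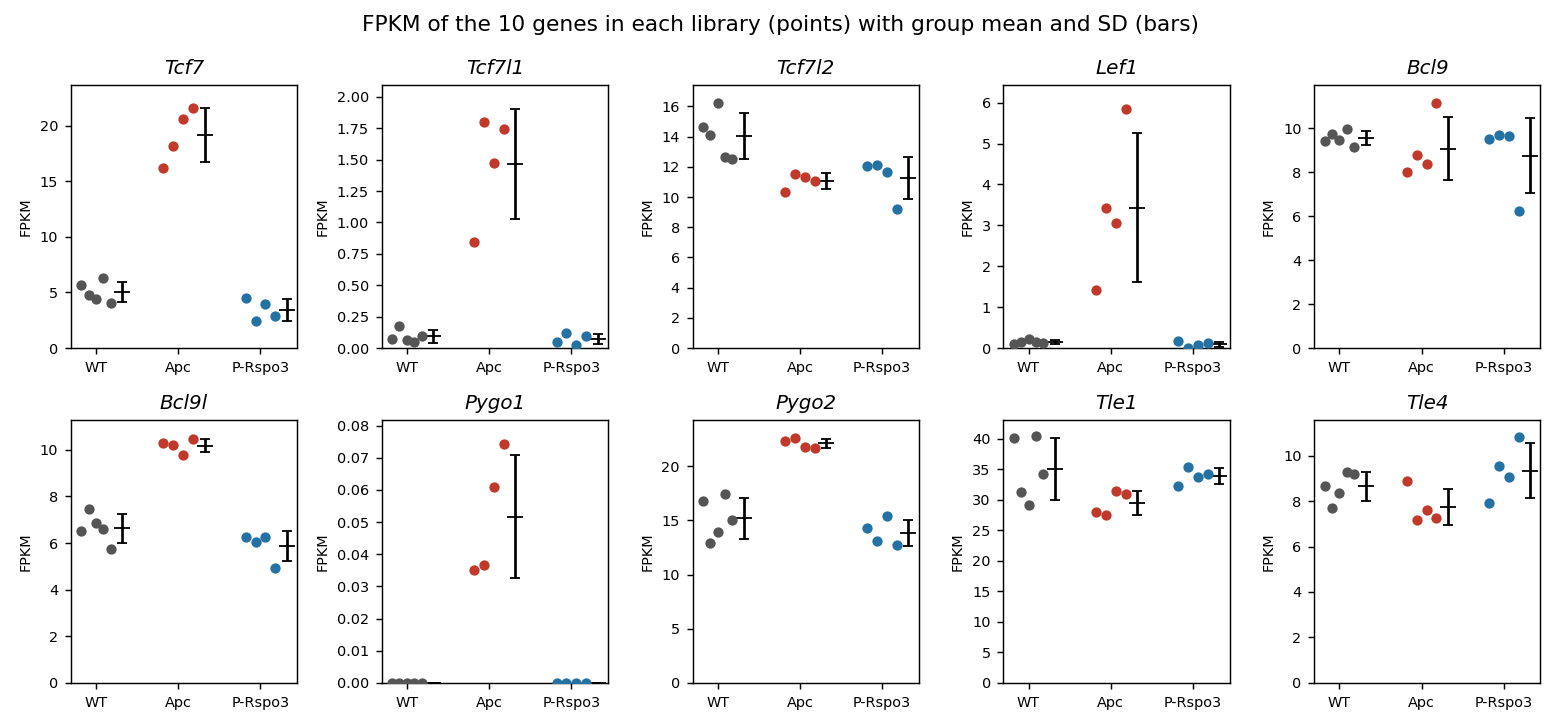
FPKM of each gene (vertical axes, linear, from 0, a separate scale for each gene) in every library of WT (grey), Apc (red) and P-Rspo3 (blue); points are libraries and the bars beside them give the mean and SD. Tcf7, Tcf7l1 and Lef1 stand far higher in Apc, Bcl9l and Pygo2 moderately higher, and P-Rspo3 overlaps WT in every panel except that of Tcf7l2, where it reaches 12.1 and WT starts at 12.5.

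Differences were tested with edgeR on counts, with a Benjamini-Hochberg adjusted p over all genes tested in a comparison. A gene passed at an adjusted p under 0.05 and was called when its log2 fold change also exceeded 1 in either direction. Between Apc and WT, 9 of the 10 genes were tested, 5 passed as higher and 4 as lower. Over all 16749 genes tested, 30.0% passed as higher and 29.0% as lower, so most genes of any kind differed between these groups. Called as higher were 3 of the 10, Tcf7, Tcf7l1 and Lef1, against 12.2% of all genes, and 0 were called as lower, against 14.1%. Tcf7l1 reached the expression filter only through its Apc libraries, so its place among the genes that passed supports nothing about the group of genes. The median log2 difference of the 9 genes was 0.30, beside 0.00058 over all genes tested. On CPM scaled by TMM, 6 genes had Apc libraries all above WT (26.8% of all genes tested) and 3 all below (25.0%). The 6 include Tcf7l1 and also Pygo1, which was not tested and so is outside the genes behind that share.

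Between P-Rspo3 and WT, 8 of the 10 genes were tested and 0 passed in either direction, with edgeR and with each of the 18 alternatives, DESeq2 included. At an unadjusted p under 0.05 there were 3, Tcf7, Tcf7l2 and Bcl9l, all with lower values in P-Rspo3. Of all 15992 genes tested, 0.00625% passed as higher, which is Rspo3 alone, and 0.0% as lower. On TMM-scaled CPM the groups overlapped for all 10 genes, while 2.35% of all genes tested had P-Rspo3 entirely above WT and 2.49% entirely below. The 10 include Tcf7l1 and Pygo1, which were not tested, and Pygo1, at 0 reads in both groups, could only overlap. The fitted value was negative for 7 of the 8 genes tested, with a median log2 difference of -0.18, beside 0.0041 over all genes.

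Between Apc and P-Rspo3, which were grown in the same medium, 9 of the 10 genes were tested, 5 passed as higher and 3 as lower, where 28.7% and 27.7% of 16456 genes did. The called genes were again Tcf7, Tcf7l1 and Lef1, with 13.4% of all genes called as higher and 13.3% as lower. Here both Tcf7l1 and Lef1 reached the expression filter only through Apc, where they are high. The median log2 difference of the 9 genes was 0.45, beside 0.00066 over all genes. Apc libraries lay entirely above P-Rspo3 for 6 genes (27.6% of all genes tested) and entirely below for 1, Tle4 (26.4%). The 6 include Tcf7l1 and Lef1, and also Pygo1, which was not tested and so is outside the genes behind that share. The comparisons with WT share the WT libraries and those with Apc share the Apc libraries, so their values are not independent of each other.

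**Figure D2:**
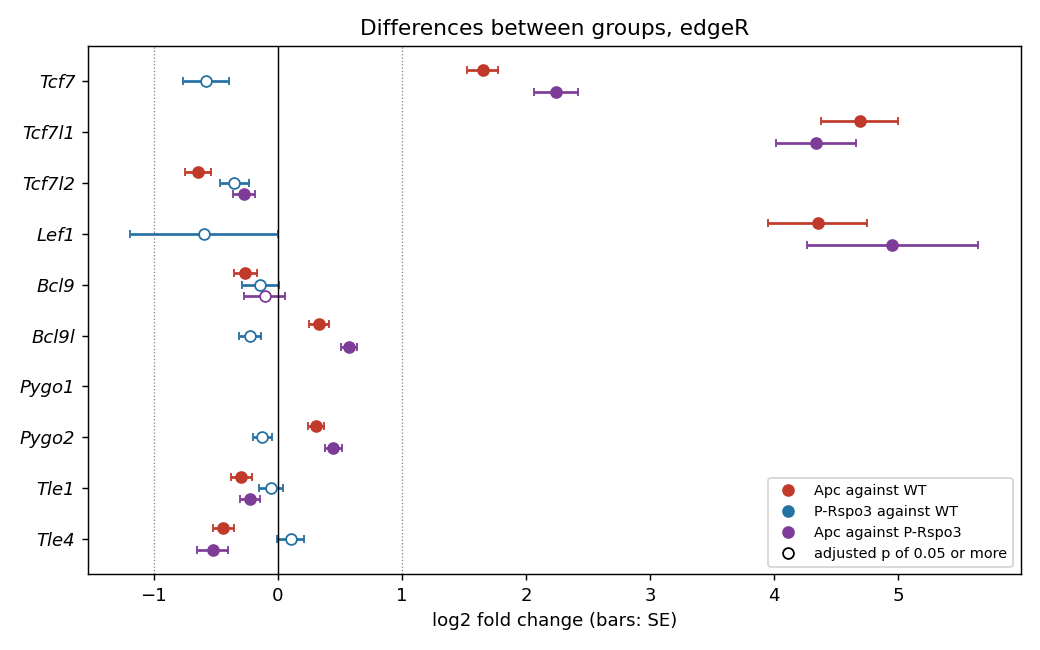
Log2 fold change of each gene (horizontal axis; bars are SE) between Apc and WT (red), P-Rspo3 and WT (blue) and Apc and P-Rspo3 (purple), from edgeR; filled points passed at an adjusted p under 0.05, dotted lines mark a log2 fold change of 1 in either direction, and genes that did not reach the expression filter have no point. The 3 genes past the right dotted line in both Apc comparisons are Tcf7 (1.65 and 2.24), Tcf7l1 (4.69 and 4.34) and Lef1 (4.35 and 4.95).

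Tcf7 (ENSMUSG00000000782; GRCm38 chromosome 11, 52252371 to 52283014, minus strand) encodes the factor TCF1. It had an FPKM of 5.64, 4.78, 4.38 and 6.34 in WT lines 1, 2, 5 and 6 and 4.07 in the naive culture. In Apc it had 16.1, 18.2, 20.6 and 21.6 in the same lines. In P-Rspo3 it had 4.53 in 15d, 2.42 in 4d, 3.94 in M and 2.85 in F. Every Apc library exceeded every other library, while P-Rspo3 overlapped WT in 1 library, 15d, which lay above WT line 5 and the naive culture. Tcf7 rose 3.14-fold from WT to Apc (log2 fold change 1.65, SE 0.13, edgeR adjusted p = 1.52e-06) and was 4.73-fold higher in Apc than in P-Rspo3 (2.24, SE 0.18, adjusted p = 7.71e-06). Against WT the value in P-Rspo3 was -0.58 on the log2 scale (SE 0.18), which did not pass (edgeR adjusted p = 0.215).

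Lef1 (ENSMUSG00000027985; GRCm38 chromosome 3, 131110471 to 131224356, plus strand) encodes the factor LEF1, an architectural DNA-bending protein as well as a beta-catenin partner. It was almost silent in WT, with 16, 15, 23, 16 and 11 reads in lines 1, 2, 5, 6 and the naive culture. Apc libraries held 190, 381, 404 and 815 reads in lines 1, 2, 5 and 6. P-Rspo3 libraries held 20 in 15d, 0 in 4d, 11 in M and 13 in F. The Apc libraries were therefore all far above the rest, and they spread widely among themselves, from an FPKM of 1.42 in line 1 to 5.83 in line 6. Lef1 rose 20.4-fold over WT (log2 fold change 4.35, SE 0.40, edgeR adjusted p = 4.97e-06). Against P-Rspo3 the fitted log2 fold change was 4.95 (SE 0.69, edgeR adjusted p = 2.41e-04). Only 2 of the 4 P-Rspo3 libraries had an FPKM of 0.1 or more, so Lef1 entered that comparison through its Apc libraries alone, and the size of that fold rests on a few reads. Between P-Rspo3 and WT it was -0.59 with an SE of 0.60 (edgeR adjusted p = 0.705), and leaving out 1 library at a time moved it from -0.98 to -0.19. At 0 to 23 reads the depth allowed no firmer statement for that pair.

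Tcf7l1 (ENSMUSG00000055799; GRCm38 chromosome 6, 72626378 to 72789254, minus strand) encodes the factor that acts mainly as a repressor. It had 3, 5, 5, 5 and 3 reads in WT and 7, 4, 5 and 6 in P-Rspo3 (15d, 4d, M and F). In Apc it had 87, 153, 163 and 183 reads in lines 1, 2, 5 and 6. It was thus near the limit of detection outside Apc and clearly detected in all 4 Apc libraries. The fitted increase over WT was 25.8-fold (log2 fold change 4.69, SE 0.31, edgeR adjusted p = 4.85e-07) and over P-Rspo3 20.2-fold (4.34, SE 0.32, adjusted p = 5.49e-06). These folds rest on a few reads in the lower group, and Tcf7l1 reached the expression filter only through its Apc libraries. Tcf7l1 did not reach the expression filter for the comparison of P-Rspo3 with WT. It shares 179 bases of exon with Gm15401 on the opposite strand, and the strand setting of the counting is not given in the sources used here.

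Tcf7l2 (ENSMUSG00000024985; GRCm38 chromosome 19, 55741820 to 55933654, plus strand), the main factor of intestinal crypts, moved the other way. Its FPKM was 14.6, 14.1, 16.2, 12.6 and 12.5 in WT lines 1, 2, 5, 6 and the naive culture. It was 10.4, 11.5, 11.3 and 11.1 in Apc lines 1, 2, 5 and 6. In P-Rspo3 it was 12.1 in 15d, 12.1 in 4d, 11.7 in M and 9.18 in F. All Apc libraries lay below all WT libraries. P-Rspo3 also lay below WT on FPKM, by a narrow margin, but the groups overlapped on CPM scaled by TMM, the scale of the test. Tcf7l2 was 1.56-fold lower in Apc than in WT (log2 fold change -0.64, SE 0.10, edgeR adjusted p = 3.20e-04), and this passed under all 18 alternatives. The difference between Apc and P-Rspo3 was smaller (-0.27, SE 0.09, edgeR adjusted p = 0.0279) and passed in only 8 of 16 alternatives. It did not pass without Apc line 1, 2 or 6 or culture 4d or M (adjusted p from 0.0505 to 0.0819). Tcf7l2 in P-Rspo3 did not pass against WT (-0.35, SE 0.12, edgeR adjusted p = 0.231).

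Since 1 factor fell and the others rose, the makeup of TCF/LEF RNA differed. FPKM is corrected for length and was summed over the 4 genes in each library. Tcf7l2 made up 72.6% ± 4.39 (SD, n = 5) of the sum in WT and 31.9% ± 3.55 (SD, n = 4) in Apc. In P-Rspo3 it made up 75.9% ± 4.72 (SD, n = 4). Tcf7 made up 26.1% ± 4.56 (SD, n = 5) in WT, 54.6% ± 2.09 (SD, n = 4) in Apc and 22.9% ± 4.55 (SD, n = 4) in P-Rspo3. Tcf7l2 was thus the most abundant of the 4 in each WT and P-Rspo3 library and Tcf7 in each Apc library. Lef1 made up 4.95% to 14.5% in Apc libraries and at most 1.07% elsewhere, and Tcf7l1 2.93% to 5.15% in Apc and at most 0.932% elsewhere. The sum itself was 35.1 ± 4.76 (SD, n = 4) in Apc, 19.3 ± 1.58 (SD, n = 5) in WT and 14.9 ± 1.96 (SD, n = 4) in P-Rspo3. These shares describe RNA over whole genes. Short forms of TCF7 and LEF1 that lack the beta-catenin-binding end are known, and gene-level values do not separate them from the full-length forms.

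**Figure D3:**
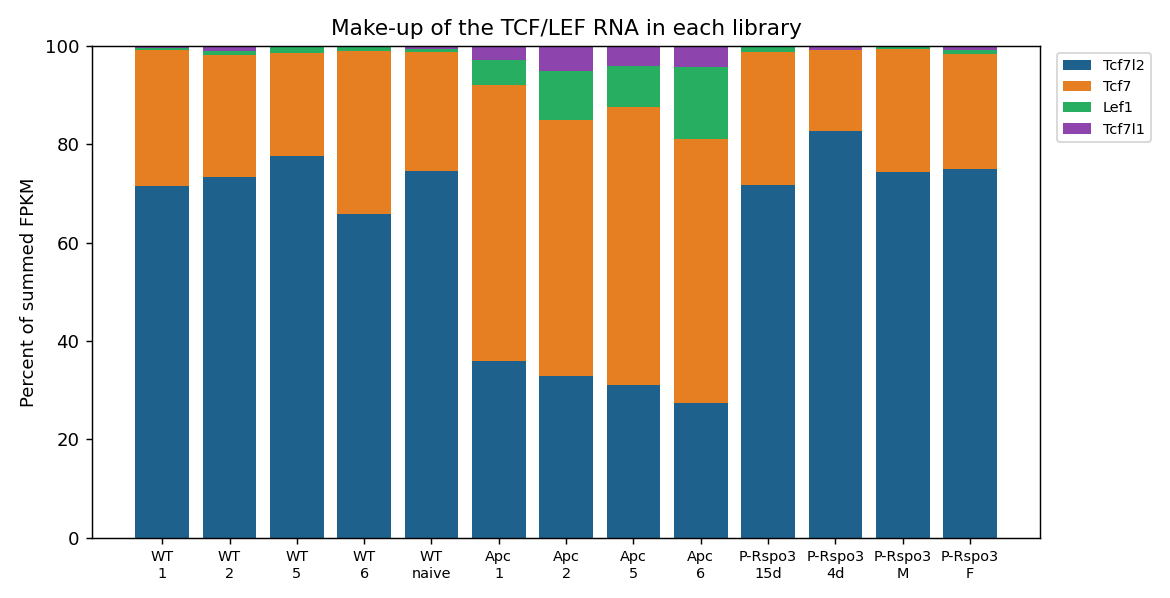
Share of the summed FPKM of Tcf7l2, Tcf7, Lef1 and Tcf7l1 (vertical axis, percent) in each of the 13 libraries, named by group and replicate. Tcf7l2 fills 65.9% to 82.7% of each WT and P-Rspo3 bar and 27.5% to 35.99% of each Apc bar.

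Tcf7 and Lef1 are also strongly transcribed in T cells, so T cell markers were read beside them. Of 8 such genes, Cd3d had 0 reads in all 13 libraries, Cd3e at most 2, Cd3g at most 1 and Cd4 and Cd8a at most 1 each. Cd2 had 2 to 7 reads in Apc libraries and 0 in all others. Lck was detected in all groups, with 25 to 64 reads in WT, 30 to 99 in Apc and 18 to 29 in P-Rspo3, and was higher in Apc than in P-Rspo3 (log2 fold change 1.03, edgeR adjusted p = 0.0351) but did not pass against WT (0.43, adjusted p = 0.316). Ptprc, carried by all leukocytes, went the other way, with 0 to 2 reads in Apc, 0 to 24 in WT and 3 to 15 in P-Rspo3. The summed FPKM of the list was 0.858 to 1.35 in WT, 0.749 to 2.30 in Apc and 0.517 to 0.701 in P-Rspo3. Lck alone had 0.696 to 2.15 in Apc. Whether T cells had a part in the values of Tcf7 and Lef1 was not tested.

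The BCL9 proteins join beta-catenin to Pygopus, and their genes did not move as a pair. Bcl9l (ENSMUSG00000063382; GRCm38 chromosome 9, 44482825 to 44511896, plus strand) showed FPKM values of 6.52, 7.48, 6.86, 6.61 and 5.74 in WT lines 1, 2, 5, 6 and the naive culture, and 10.3, 10.2, 9.77 and 10.5 in Apc lines 1, 2, 5 and 6. In P-Rspo3 it had 6.25 in 15d, 6.03 in 4d, 6.27 in M and 4.93 in F. Apc stood above both other groups in every library. Bcl9l rose in Apc by 1.26-fold over WT (log2 fold change 0.33, SE 0.08, edgeR adjusted p = 4.35e-03) and by 1.49-fold over P-Rspo3 (0.57, SE 0.06, adjusted p = 5.48e-05). P-Rspo3 did not pass against WT (-0.23, SE 0.09, edgeR adjusted p = 0.298). Bcl9l shares 110 bases of exon with Cxcr5 on the opposite strand.

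Bcl9 (ENSMUSG00000038256; GRCm38 chromosome 3, 97203662 to 97297917, minus strand) showed FPKM values of 9.14 to 9.99 in WT, 7.999, 8.77, 8.37 and 11.2 in Apc lines 1, 2, 5 and 6, and 9.50, 9.68, 9.65 and 6.22 in P-Rspo3 15d, 4d, M and F. On FPKM WT was the tightest of the groups, and line 6 in Apc and culture F in P-Rspo3 set the wide spread of the others. On TMM-scaled CPM the SD of Bcl9 was 6.48 in WT, 6.18 in Apc and 13.6 in P-Rspo3. Its difference between Apc and WT was small (log2 fold change -0.26, SE 0.09, edgeR adjusted p = 0.0307) and did not pass in 8 of 18 alternatives, among them limma on log2(FPKM + 1) and the fits without Apc line 1 (adjusted p = 0.0897), 2 or 5 or WT line 2 or 5. Bcl9 did not pass between Apc and P-Rspo3 (-0.11, SE 0.16, edgeR adjusted p = 0.615) or between P-Rspo3 and WT (-0.14, SE 0.15, edgeR adjusted p = 0.716). As a share of the summed FPKM of the pair, Bcl9 was 59.0% ± 1.88 (SD, n = 5) in WT, 46.9% ± 3.31 (SD, n = 4) in Apc and 59.6% ± 2.60 (SD, n = 4) in P-Rspo3.

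The Pygopus genes were used very unequally. The widely expressed member Pygo2 (ENSMUSG00000047824; GRCm38 chromosome 3, 89430214 to 89435128, plus strand) showed FPKM values of 16.7, 12.9, 13.9, 17.4 and 15.03 in WT lines 1, 2, 5, 6 and the naive culture. In Apc it had 22.3, 22.6, 21.8 and 21.7 in lines 1, 2, 5 and 6, and in P-Rspo3 14.3 in 15d, 13.1 in 4d, 15.4 in M and 12.7 in F. Apc was again above every other library, with a narrow spread. Pygo2 rose by 1.23-fold over WT (log2 fold change 0.30, SE 0.06, edgeR adjusted p = 1.84e-03) and by 1.36-fold over P-Rspo3 (0.45, SE 0.07, adjusted p = 4.60e-04). P-Rspo3 did not pass against WT (-0.13, SE 0.08, edgeR adjusted p = 0.505).

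Pygo1 (ENSMUSG00000034910; GRCm38 chromosome 9, 72925645 to 72952181, plus strand) had 0 reads in all 5 WT and all 4 P-Rspo3 libraries and 11, 10, 18 and 24 reads in Apc lines 1, 2, 5 and 6. Its FPKM in Apc was 0.0350 to 0.0742, under the filter of 0.1, so it was not among the genes tested. At 3 reads as the limit of each library, Apc was at least 3.93-fold higher than WT and at least 3.99-fold higher than P-Rspo3. An exact permutation test of its CPM, two-sided, gave p = 0.0159 for 4 libraries against 5 and p = 0.0286 for 4 against 4, each the smallest these designs can give. Without the filter, edgeR gave adjusted p = 9.87e-05 and 2.96e-04. Even in Apc, Pygo1 made up only 0.157% to 0.341% of the summed FPKM of the Pygopus pair.

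Tle1 and Tle4 encode corepressors that bind TCF/LEF factors when beta-catenin is absent. Tle1 (ENSMUSG00000008305; GRCm38 chromosome 4, 72117142 to 72200919, minus strand), the most abundant of the 10 genes in all 3 groups, had an FPKM of 40.2, 31.4, 29.2, 40.4 and 34.3 in WT lines 1, 2, 5, 6 and the naive culture and 28.1, 27.5, 31.4 and 31.0 in Apc lines 1, 2, 5 and 6. In P-Rspo3 it had 32.2 in 15d, 35.4 in 4d, 33.7 in M and 34.2 in F. On FPKM the ranges of WT and Apc overlapped, while on TMM-scaled CPM they did not. Tle1 was lower in Apc than in WT by 1.23-fold (log2 fold change -0.29, SE 0.09, edgeR adjusted p = 0.0123) and than in P-Rspo3 by 1.17-fold (-0.22, SE 0.08, adjusted p = 0.0432). The latter passed in only 7 of 16 alternatives. It did not pass without any 1 Apc line or without culture 4d, M or F (adjusted p from 0.0556 to 0.118). Tle1 shares 247 bases of exon with Gm11250 on the opposite strand.

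Tle4 (ENSMUSG00000024642; GRCm38 chromosome 19, 14448150 to 14598051, minus strand) showed FPKM values of 7.71 to 9.30 in WT, 8.90, 7.18, 7.62 and 7.27 in Apc lines 1, 2, 5 and 6, and 7.93, 9.57, 9.04 and 10.8 in P-Rspo3 15d, 4d, M and F. Apc line 1 was the highest of its group and lay within the WT range on this scale. Tle4 was lower in Apc than in WT by 1.36-fold (log2 fold change -0.44, SE 0.08, edgeR adjusted p = 9.39e-04) and than in P-Rspo3 by 1.44-fold (-0.53, SE 0.13, adjusted p = 6.26e-03). The latter passed in 14 of 16 alternatives and did not pass with limma on log2(FPKM + 1) or log2(FPKM + 0.1) (adjusted p = 0.0905 and 0.0852). In P-Rspo3 against WT neither Tle1 (-0.05, SE 0.10, edgeR adjusted p = 0.862) nor Tle4 (0.10, SE 0.11, adjusted p = 0.724) passed.

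The scale mattered for the small differences. FPKM is set by the reads of a library, whereas TMM centres the bulk of genes, and on log2(FPKM + 1) the median of all genes was 0.17 higher in Apc than in WT and 0.16 higher in Apc than in P-Rspo3. With limma on that scale 7199 genes passed as higher and 3219 as lower in Apc against WT, beside 5028 and 4864 with edgeR. Tle1 (-0.23, limma adjusted p = 0.0740), Tle4 (-0.14, adjusted p = 0.181) and Bcl9 (-0.08, adjusted p = 0.513) then did not pass between Apc and WT, nor did Tle4 between Apc and P-Rspo3 (-0.24, adjusted p = 0.0905). Tcf7, Tcf7l1, Lef1, Bcl9l and Pygo2 passed as higher in Apc on either scale and against either group, and Tcf7l2 passed as lower than WT on either scale.

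Lines 1, 2, 5 and 6 were sequenced both as WT and as Apc, so the difference could be read within each line on TMM-scaled CPM. Tcf7 was higher in Apc in 4 of 4 lines, by 1.31 to 1.84 on the log2 scale, Lef1 in 4 of 4 by 3.24 to 5.37, and Tcf7l1 in the 3 lines with more than 3 WT reads by 4.50 to 4.90. Tcf7l2 was lower in 4 of 4 lines, with -0.86 to -0.31. Bcl9l (0.15 to 0.44) and Pygo2 (0.15 to 0.50) were higher in 4 of 4, and Tle1 (-0.56 to -0.11) and Tle4 (-0.60 to -0.17) lower in 4 of 4. Bcl9 was lower in 3 lines and at 0.0094 in line 6. The share of all genes with the same sign in every line was not counted. Of all genes tested between Apc and WT, 30.0% passed as higher and 29.0% as lower, so such agreement is not particular to these genes.

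**Figure D4:**
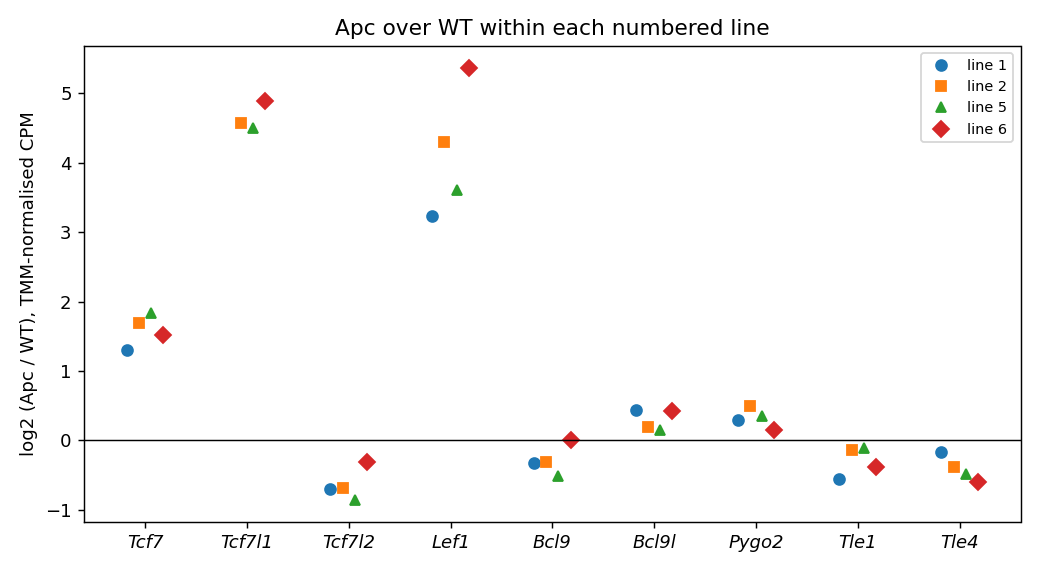
Log2 ratio of Apc to WT (vertical axis, TMM-scaled CPM) within lines 1, 2, 5 and 6 for each gene; each symbol is 1 line, and a line with at most 3 WT reads has no symbol. All lines lie on the same side of 0 for every gene plotted except Bcl9.

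The Apc lines also differed among themselves in level. On FPKM, line 1 was lowest and line 6 highest for Tcf7 and Lef1, and line 1 was lowest for Tcf7l1. The ratio of Apc to WT within a line kept that order for Lef1 but not for Tcf7, for which it was 1.84 in line 5, 1.70 in line 2, 1.52 in line 6 and 1.31 in line 1 on the log2 scale. Of the 8 Wnt output genes, Axin2, Nkd1, Notum and Znrf3 were lowest in line 1 and highest in line 6, and Lgr5 and Sp5 were lowest in line 1 and highest in line 5. Rnf43 was lowest in line 2 and highest in line 6, whereas Ascl2 was highest in line 2 and lowest in line 6. Bcl9l and Pygo2 varied much less, with an SD of 0.296 around 10.2 and of 0.439 around 22.1 FPKM (n = 4).

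A list of 33 further genes of the same machinery was read for context: beta-catenin itself, other Groucho-family genes, chromatin cofactors, kinases and inhibitors. Between Apc and WT 19 passed as higher and 5 as lower, where 30.0% and 29.0% of all genes tested did, and the median log2 difference was 0.22, beside 0.00058 over all genes. Between Apc and P-Rspo3 15 passed as higher and 6 as lower, where 28.7% and 27.7% of all genes did, with a median of 0.23 beside 0.00066. Only 2 were called in either comparison, Tle3 as higher and Tnik as lower. Of all genes tested, 12.2% were called as higher and 14.1% as lower against WT, and 13.4% and 13.3% against P-Rspo3. Between P-Rspo3 and WT 0 of the 33 passed with edgeR on those groups alone, and 1 had an unadjusted p under 0.05, Ctnnbip1, which encodes an inhibitor of the beta-catenin and TCF contact (-0.41, adjusted p = 0.139). In that comparison 1 passed as lower with DESeq2 and 1 with edgeR on all 3 groups in 1 fit.

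Ctnnb1, which encodes beta-catenin, had an FPKM of 282 to 298 in WT, 418 to 480 in Apc and 282 to 309 in P-Rspo3. It rose by 1.22-fold over WT (log2 fold change 0.29, SE 0.07, edgeR adjusted p = 4.69e-03) and by 1.27-fold over P-Rspo3 (0.35, SE 0.08, adjusted p = 3.35e-03). Its RNA level says nothing of the protein, whose turnover is where APC acts.

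Tle3, a Groucho-family corepressor like Tle1 and Tle4, had an FPKM of 12.8 to 22.9 in WT, 42.7 to 54.4 in Apc and 13.3 to 21.5 in P-Rspo3. It rose by 2.27-fold over WT (log2 fold change 1.19, SE 0.13, edgeR adjusted p = 2.05e-05) and 2.48-fold over P-Rspo3 (1.31, SE 0.13, adjusted p = 2.41e-05). The order within the family changed with it: the ratio of Tle1 to Tle3 FPKM was 1.60 to 3.13 in WT, 1.497 to 2.55 in P-Rspo3 and 0.528 to 0.726 in Apc. Tle5, which encodes a short family member, was lower in Apc than in WT (-0.61, SE 0.08, edgeR adjusted p = 6.46e-05) and than in P-Rspo3 (-0.49, SE 0.11, adjusted p = 3.96e-03).

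Tnik encodes a kinase that binds TCF7L2 and beta-catenin. It had an FPKM of 9.85 to 14.4 in WT, 3.56 to 4.88 in Apc and 9.40 to 15.1 in P-Rspo3, with Apc below every other library. Tnik fell 3.05-fold from WT (log2 fold change -1.61, SE 0.14, edgeR adjusted p = 2.86e-06) and was 3.14-fold lower in Apc than in P-Rspo3 (-1.65, SE 0.15, adjusted p = 1.71e-05). Among chromatin cofactors with smaller differences, the histone deacetylase genes Hdac1 (0.56) and Hdac2 (0.58) and the remodeller gene Smarca4 (0.54) passed as higher in Apc than in WT, and Tbl1xr1 (-0.64), which encodes a corepressor exchange factor, as lower. Ep300 (-0.02) and Crebbp (-0.11), which encode acetyltransferases, did not pass. Ctbp1 passed as lower with edgeR and changed sign with limma on FPKM.

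**Figure D5:**
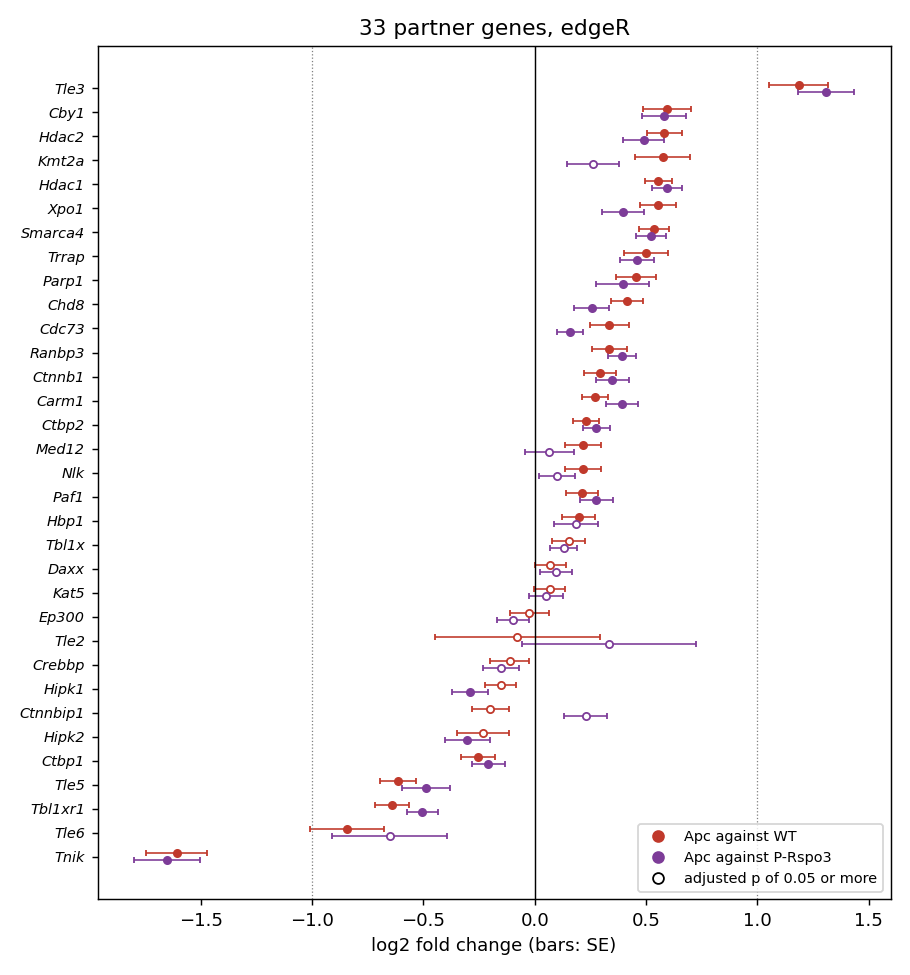
Log2 fold change of 33 partner genes (horizontal axis; bars are SE) in Apc against WT (red) and Apc against P-Rspo3 (purple), ordered by the former; filled points passed at an adjusted p under 0.05. Tle3 and Tnik are the only points beyond a log2 fold change of 1 in either direction.

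The genes whose pattern was most like that of each gene were found among 9519 genes by Pearson's r of log2 CPM, as a description. For Tcf7 these were Cdca7, Mpzl1 and Cd276, with r of 0.99 over the 13 libraries and 0.90 to 0.95 over the 9 WT and P-Rspo3 libraries. For Lef1 they were Pla2g2a, Zfp799 and Spindoc (0.96 to 0.97, and 0.80 to 0.86). For Tcf7l2 they were Lonrf1, Osbpl7 and Dguok (0.93 to 0.94, and 0.87 to 0.94). For Bcl9 they were Kdm3a, Egln3 and Hpse (0.89 to 0.91, and 0.91 to 0.93), and for Bcl9l Colgalt1, Miip and Arl5a (0.95 to 0.96, and 0.85 to 0.89). For Pygo2 they were Hmgn2, Ung and Chpf (0.97 to 0.98, and 0.86 to 0.91). For Tle1 they were Taf15, Lipt2 and Stim1 (0.85 to 0.88, and 0.79 to 0.84), and for Tle4 Tmem41a, Lzic and Orai1 (0.96 to 0.97, and 0.87 to 0.91). The 13 libraries split into Apc and the rest, and libraries share depth and scaling.

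Among the genes themselves, Tcf7 and Lef1 had r of 0.96 over the 13 libraries and 0.71 over the 9 without Apc. Tcf7 and Tcf7l2 had -0.56 over the 13 and 0.43 over the 9, so their opposite movement was a difference between Apc and the rest and was not seen among the remaining libraries. Bcl9l and Tcf7l2 had -0.29 over the 13 and 0.85 over the 9. Culture F of P-Rspo3 had the lowest Tcf7l2, Bcl9 and Bcl9l of those 9 libraries.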

How the data were processed

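Intestinal organoid RNA (polyA) had been sequenced in 15 libraries. Counts per Ensembl gene (HTSeq, not normalized) and FPKM (Cufflinks 2.2.1) are as the authors deposited them, from STAR alignments to GRCm38. The annotation release and strand setting are not given in the sources used here. Gene names and coordinates are from GENCODE vM21. In 2 libraries the title disagrees with the genotype label or names no genotype, so these entered no group.

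Counts were tested with edgeR 4.0.16 (R 4.3.3; TMM, quasi-likelihood test, its default form) in separate fits of 2 groups, on genes that reached 0.1 FPKM in a number of libraries no smaller than the size of the smaller group, with Benjamini-Hochberg adjustment. SE is the absolute log2 fold change divided by the square root of F. The test was first tried on simulated counts with known changes. Alternatives were DESeq2 1.42.0 and its size factors, the newer edgeR test, no filter, 1 fit of all groups, limma 3.58.1 on log2(FPKM + 1) and log2(FPKM + 0.1), each library left out, WT of flox lines only, the 2 ungrouped libraries added by genotype, and the line as a block. Lines 1, 2, 5 and 6 pair WT and Apc by their labels; deviations from the group means correlated by 0.0868 to 0.212 over the 4 pairs, against a median of -0.0376 over 12 other pairs. Promoter windows are from RefSeq.

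The genes and lists were chosen with earlier results of these data known. The text gives all 10 genes, Ctnnb1, partner genes that were called with groups that did not overlap, genes that check the labels and 8 Wnt output genes; for likeness, the 3 genes with the highest r among those with a mean log2 CPM above 3. Likeness was computed for the 8 genes tested in all comparisons. Tle5, Ctnnbip1, Ctbp1, Hdac1, Hdac2, Smarca4, Tbl1xr1, Ep300 and Crebbp were named after their values were seen.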

Additional observations from a re-analysis of the deposited data

Results flagged for a closer look

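A library standing apart from its own group was sought by Dixon's test in 28 groups of 4 or 5 libraries (10 genes in 3 groups, on TMM-scaled CPM, leaving out groups at 0 throughout), which flags about 1 group in 20 by chance, and 2 were flagged. Tcf7l1 in Apc line 1 was 2.203 CPM, where the other 3 Apc libraries had 4.25 to 4.42. Bcl9l in P-Rspo3 culture F was 39.8 CPM, where the other 3 P-Rspo3 libraries had 45.1 to 45.6. Without that line, Tcf7l1 was still called in Apc against WT (log2 fold change 4.88, edgeR adjusted p = 3.89e-07), and without culture F, Bcl9l still passed in Apc against P-Rspo3 (0.52, edgeR adjusted p = 1.21e-04).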

How the results depend on the processing

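In all alternatives 5 genes passed as higher and 3 were called as higher in Apc against WT and against P-Rspo3, with Pygo1 added where the filter was lifted, and 0 passed between P-Rspo3 and WT. The counts of genes passing as lower moved. Against WT, 4 became 1 with limma on log2(FPKM + 1) and 1 on log2(FPKM + 0.1), and 3 to 4 with 1 library left out. Against P-Rspo3, 3 became 1 with all groups in 1 fit, 1 and 1 with limma on either pseudocount, 2 without the filter, and 1 to 3 with 1 library left out; the libraries that gave 1 were Apc lines 1, 2 and 6 and cultures 4d and M, where Tcf7l2 and Tle1 did not pass. The cause was not tested. Bcl9 against P-Rspo3 changed sign with limma (0.054 and 0.061, from -0.11). With 1 library left out, fitted values of P-Rspo3 against WT crossed 0 for Bcl9 (-0.24 to 0.0092), Tle1 (-0.11 to 0.0035) and Tle4 (-0.0054 to 0.19). In the fit with line as a replicate block, 5 genes passed as higher and 4 as lower, 3 were called, and no call of the 9 genes changed; among the 33 partner genes 20 of 24 passing genes still passed. Of those 33, 1 passed as lower in P-Rspo3 against WT with all groups in 1 fit and 1 with DESeq2, in place of 0. With the replicate block, 4490 genes passed as higher and 4369 as lower over all genes. For P-Rspo3 no paired analysis was possible because its cultures share no numbers with WT. With WT of the flox lines only, or with DESeq2, P-Rspo3 against WT gave 385 and 508 passing genes in place of 1, none of the 10 among them. Depth limits Tcf7l1, Lef1 and Pygo1 outside Apc, at 0 to 23 reads.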

Other observations

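In 2 libraries the title either disagrees with the genotype in the labels (NAIVE_F) or names none (LIPO). They stood in no group, and their values are given singly. The library titled LIPO, with the genotype Dox naive and grown in ENR medium, had an FPKM of 3.39 for Tcf7, 14.9 for Tcf7l2, 0.113 for Lef1, 5.30 for Bcl9l, 13.6 for Pygo2 and 40.9 for Tle1. The library titled NAIVE_F, with the genotype Ptprk-Rspo3 and grown in EN medium, had 3.48 for Tcf7, 12.7 for Tcf7l2, 0.00916 for Lef1, 6.13 for Bcl9l, 14.5 for Pygo2 and 37.6 for Tle1. Pygo1 had 0 reads in both. Rspo3 was listed at 0 in LIPO, inside the WT range, and at 8.54 in NAIVE_F, inside the P-Rspo3 range. Both Tcf7 values lay under the WT range and inside that of P-Rspo3, whereas both Tcf7l2 values lay inside the WT range and above every P-Rspo3 library.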
